A study of Rattus norvegicus with 241 samples.

Results

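The genes described here are 10 members of the bone morphogenetic protein (BMP) and activin system: the ligand genes BMP2, BMP4, BMP7, INHBA and INHBB, the receptor genes BMPR1A and BMPR2, and the antagonist genes GREM1, FST and NOG. They were taken as a gene family, with earlier results of these data known, and were looked up by symbol in every bulk and single-cell table of rat mammary cells. The bulk tables listed 12693 to 15826 genes and the single-cell tables listed 15586, 16437 and 18237 genes. All 10 were present, except that GREM1 was not listed for CD45+ cells of tumors. A further 52 genes of the same pathway (16 ligands, 10 receptors and co-receptors, 15 antagonists, 11 transducers and targets) were read beside them.

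Female ACI and SD (Sprague-Dawley) rats received LY2157299, a small molecule (TGFBRi here) that blocks the kinase of the receptor TGFBR1, at 75 mg/kg by mouth 2 times a day, or vehicle. Dosing ran for 10 days and started at 35 days of age in young ACI rats, at 24 days in young SD rats and at 18 to 24 weeks in adult virgin or parous ACI rats. Glands were taken at D0 (the end of dosing), and in young ACI rats also 7 and 14 days later (D7, D14). SD rats of the NMU experiment were dosed from 21 days of age, and all of them, controls included, then received the carcinogen NMU, with samples taken 87 days later; their groups were tumor-bearing (TB) vehicle, TB TGFBRi and tumor-free (TF) TGFBRi, and EPCAM+ and CD45+ cells of the tumors were also sequenced. ACI rats of the estradiol experiment started at 38 days of age, had 21 days of dosing and then carried a silastic implant holding estradiol (E2) or air, and were sampled months later, at the end of that experiment; the groups were vehicle and TGFBRi without E2, E2 TB vehicle, E2 TB TGFBRi and E2 TF TGFBRi. Rats of both tumor experiments were thus older than the young rats at D0. Tumor status is an outcome of that experiment, so TF TGFBRi and TB vehicle rats differ in outcome as well as in treatment, and the 2 cannot be told apart in that comparison. Sorted fractions were basal (CD24+CD29high) and luminal (CD24+CD29low) cells among CD31-CD45- cells, and CD45+ leukocytes. Bulk groups held 3 rats in the young ACI, NMU and tumor sets, 4 in the young SD set, 2 to 4 in the adult set and 2 to 4 in the estradiol set. Single-cell RNA-seq was available at D0 for sorted ACI cells (3 vehicle, 3 TGFBRi rats), sorted SD cells (3 vehicle, 6 TGFBRi) and the whole SD gland (3 vehicle, 6 TGFBRi).

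BMPs and activins are secreted dimers of the TGFβ superfamily. A BMP binds a complex of type I receptors such as BMPR1A and type II receptors such as BMPR2, and the active receptors phosphorylate SMAD1, SMAD5 and SMAD9, which join SMAD4 and switch on targets such as the ID genes, SMAD6 and ATOH8. INHBA and INHBB encode the β subunits of activin A and activin B, which signal through SMAD2 and SMAD3, the same transducers that TGFβ uses. Noggin (NOG) and gremlin 1 (GREM1) bind BMPs outside the cell, and follistatin (FST) binds activins most tightly and some BMPs. In the mammary gland BMP signaling is known from the embryonic bud and from the balance of basal and luminal cells, and activin B from ductal growth.

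Promoter windows were held by the RefSeq table for 7 of the 10 genes (not BMP2, BMP7 or FST). The windows of GREM1, NOG and INHBA are shown because these are the antagonists and the activin subunit whose levels turn on the tests of the whole gland and of the GREM1 calls described further on. Each is the 250 bases before the annotated start, on build GRCr8, written 5′ to 3′ on the gene's own strand; capitals mark matches, on either strand, to GGCGCC (a GC-rich SMAD motif) or CAGAC (the SMAD3 and SMAD4 motif). The 2 motifs share no full match with each other in these windows. GREM1 lies on the minus strand at chr3:120978320-120978569, NOG on the minus strand at chr10:74627502-74627751, and INHBA on the minus strand at chr17:53804509-53804758.
GREM1: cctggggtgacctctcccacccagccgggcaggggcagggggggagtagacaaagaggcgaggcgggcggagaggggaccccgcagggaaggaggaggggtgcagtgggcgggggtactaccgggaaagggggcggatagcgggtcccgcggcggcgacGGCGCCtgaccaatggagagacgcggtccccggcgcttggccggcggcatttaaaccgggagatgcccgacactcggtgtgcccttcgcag
NOG: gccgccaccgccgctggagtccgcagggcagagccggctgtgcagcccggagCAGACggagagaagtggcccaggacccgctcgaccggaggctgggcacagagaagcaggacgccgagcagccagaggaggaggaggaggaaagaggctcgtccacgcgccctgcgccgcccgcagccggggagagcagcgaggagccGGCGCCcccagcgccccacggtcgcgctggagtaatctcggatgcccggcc
INHBA: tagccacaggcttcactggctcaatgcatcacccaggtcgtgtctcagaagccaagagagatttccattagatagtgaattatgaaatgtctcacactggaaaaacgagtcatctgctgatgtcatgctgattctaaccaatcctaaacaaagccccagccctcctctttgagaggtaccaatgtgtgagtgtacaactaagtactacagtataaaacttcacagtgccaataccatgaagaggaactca
GREM1 held 1 match to GGCGCC, NOG held 1 match to each motif, and INHBA held none. Over the same 250 bases of all 27457 promoters, 9.236% held GGCGCC and 42.76% held CAGAC, so both motifs are common letters and a match is a description only.

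Bulk libraries held 4194912 to 52314784 reads on genes (median 20100223), and no pair of libraries of 1 group differed by as little as counting noise. In young ACI rats at D0 the TGFBRi libraries were shallower than the vehicle ones in both epithelial sorts, with 4194912 to 15136358 against 12382292 to 18781674 reads in basal cells and 8922897 to 18568520 against 18895823 to 21160386 in luminal cells. The single-cell tables held 16762 (ACI), 39766 (SD) and 103524 (whole gland) cells, and the median UMIs per cell of a library ran from 4251 to 15941, from 4365.5 to 14448 and from 2820 to 3885. The share of cells that Scrublet marked as doublets reached 1.44%, 19.3% and 3.42% in the highest library, and none were removed in the main counts. Libraries shared at most 3, 7 and 284 cell barcodes, up to 2.51% of the smaller library in the whole gland. Each replicate was a separate rat by the labels.

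The first question was in which epithelial layer each member was expressed, before any treatment. In vehicle rats at D0, the genes of the antagonists and BMP7 were mostly higher in basal cells and INHBB was higher in luminal cells. Of the 10 members, 6 passed the test in young ACI rats, where 20.5% of 15824 genes passed, and 7 passed in young SD rats, where 50.1% of 13400 passed. Bulk values are normalized read counts, differences are log2(value + 1) of basal minus luminal with their standard error (SE), and a gene was called at an adjusted p of 0.05 or less by limma. In bulk samples, fewer cells of a type and less RNA per cell cannot be told apart.

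FST had the largest difference of the members on the log2(value + 1) scale, on which low genes such as GREM1 are compressed. Its normalized counts in basal cells were 5055, 4670 and 3858 against 83, 88.2 and 46.4 in luminal cells of ACI rats, a difference of 5.99 (SE 0.56, adjusted p = 2.85e-09). In SD rats they were 2245, 3089, 2060 and 3184 against 324.2, 44.1, 58.3 and 35.7, a difference of 5.11 (SE 0.53, adjusted p = 6e-07). No luminal sample reached the lowest basal sample in either strain.

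NOG and GREM1, the other antagonists, were much lower in count. NOG was 117.4, 92.1 and 80.9 in ACI basal cells against 7.83, 3.65 and 9.95 in luminal cells, a difference of 3.66 (SE 0.68, adjusted p = 0.00015), and did not pass in SD rats (0.47, adjusted p = 0.65). GREM1 was 56.6, 61.1 and 1.16 against 1.57, 0 and 0 in ACI rats, and the ACI call (3.85, SE 1.13, adjusted p = 0.013) had 1 basal rat inside the luminal range. It was 52.8, 14.8, 10.9 and 51.1 against 1.14, 0.595, 0 and 0 in SD rats (4.31, SE 0.63, adjusted p = 2.6e-05), with no overlap. The luminal samples held 2 GREM1 reads in each strain, so the fitted differences depend on the pseudocount; the ratio of reads per depth was 86.5 in ACI rats (95% counting interval 23.5 to 721.2) and 110.8 in SD rats (30.24 to 921.2), counting error only. The ACI call for GREM1 was lost on the CPM scale and without either of 2 rats, LD3L and LD3R.

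Among the ligands, BMP7 stood in basal cells at 1509, 2254 and 1325 against 199.8, 320.7 and 151.7 in luminal cells of ACI rats (2.95, SE 0.33, adjusted p = 7.27e-08). The SD values were 1521, 2128, 1905 and 1699 against 535.4, 459.6, 428.7 and 392.0 (1.99, SE 0.30, adjusted p = 3.5e-05). BMP7 groups did not overlap in either strain. INHBB, the activin B subunit, went the other way, with 47.1, 48.9 and 149.0 in basal against 731.7, 519.7 and 741.1 in luminal cells of ACI rats (-3.21, SE 0.66, adjusted p = 0.0005). In SD rats it was 64.3, 45.8, 135.6 and 94.9 against 231.7, 948.9, 1066 and 1164 (-3.19, SE 0.57, adjusted p = 0.00017), again with no overlap.

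BMP4 passed in ACI rats only, at 120.0, 132.9 and 229.9 against 47.8, 24.1 and 39.8 (2.08, SE 0.56, adjusted p = 0.0074), and its SD difference was 0.80 (adjusted p = 0.31). INHBA passed in SD rats, at 38.8, 23.6, 46 and 47.5 against 2.28, 0.595, 2.78 and 3.37 (3.66, SE 0.71, adjusted p = 0.00035), and its ACI difference was 1.5 (adjusted p = 0.39). Whether the strains differ was not tested for either gene. BMP2 did not pass in ACI (-0.25, adjusted p = 0.83) or SD rats (0.29). The BMP4 call in ACI rats was lost without LD3R or LD4R (adjusted p up to 0.085).

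The receptors passed in SD rats. BMPR1A was 360, 389, 330 and 634 in basal against 66.2, 176.2, 101.3 and 193.3 in luminal cells (1.74, SE 0.35, adjusted p = 0.00053), and BMPR2 was 527, 586, 588 and 762 against 111, 266, 160 and 467 (1.49, SE 0.35, adjusted p = 0.0019). In ACI rats BMPR1A was lower in basal cells without passing, at 654, 482 and 662 against 1047, 943 and 943 (-0.72, SE 0.55, adjusted p = 0.45), although the groups did not overlap, and BMPR2 differed by 0.21. Basal and luminal samples of a rat share the animal, and the fit that paired them by rat called BMPR1A in ACI rats (-0.72, SE 0.27, adjusted p = 0.042) and raised the called genes there from 3241 to 5472 of 15824 (34.6%). In the ACI single cells described further on, BMPR1A had the opposite order, highest in basal-like cells.

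Markers of other cells moved with the sort. The summed normalized counts of the fibroblast markers were 54132 to 127485 in basal against 10953 to 22586 in luminal cells of ACI rats, and 371021 to 594202 against 5001 to 19784 in SD rats; those of mural cells were 65718 to 95318 against 1798 to 3138, and 16179 to 36535 against 715 to 2324. Their part in the bulk differences was not tested. The basal markers were 146816 to 219766 against 1088 to 2272 in ACI rats and 123561 to 155231 against 4558 to 68721 in SD rats, where the high luminal value is 1 rat (C6N), the same rat whose luminal FST was 324.2. Over all genes the median difference was 0.21 and 0.13, and over the members it was 1.79 and 1.62.

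**Figure D1:**
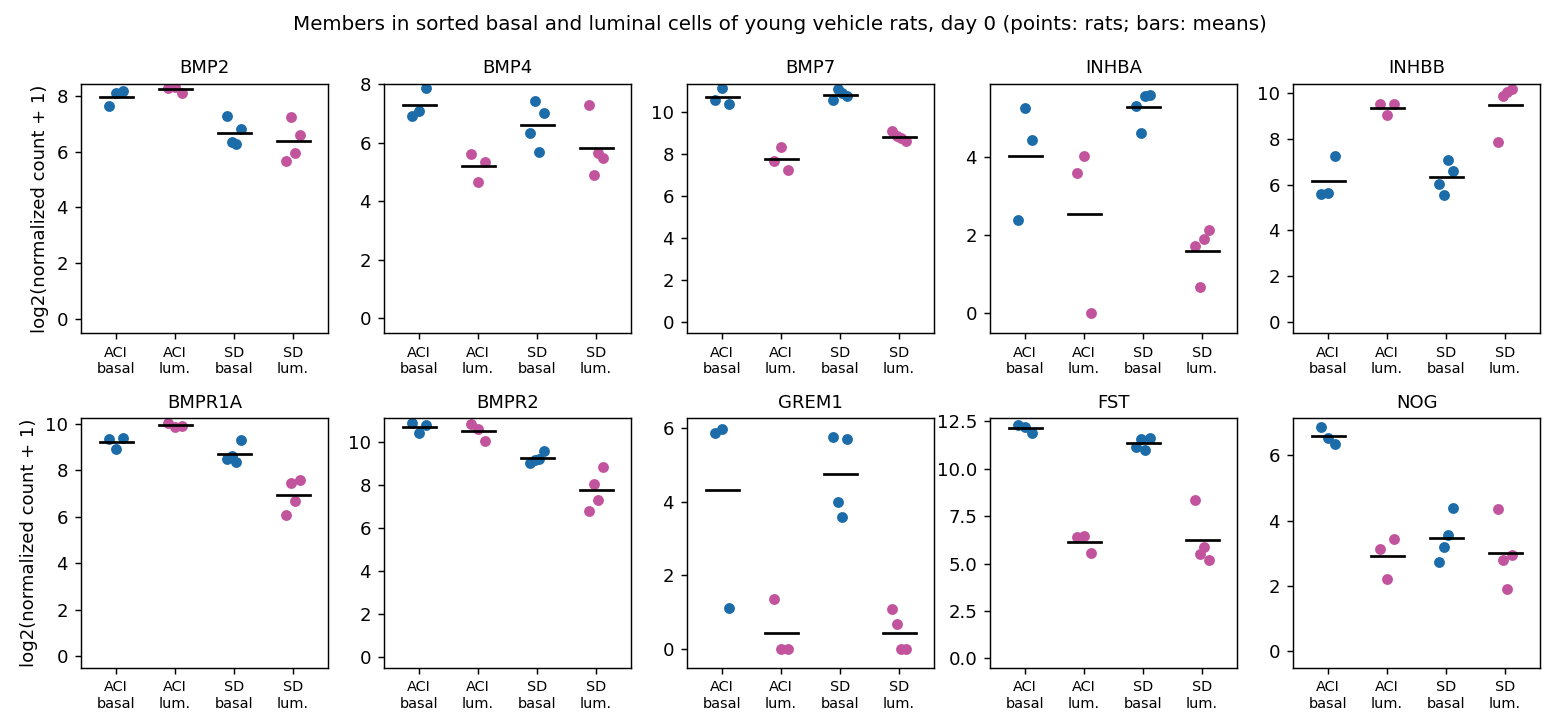
log2(normalized count + 1) of each of the 10 genes (y axis) in sorted basal (blue) and luminal (pink, lum.) cells of young ACI (3 rats) and young SD (4 rats) vehicle rats at D0, with 1 point per rat and bars at the means. FST and BMP7 lie higher in basal cells and INHBB higher in luminal cells in both strains without overlap, and 1 ACI basal rat lies in the luminal range for GREM1.

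Among the 52 other pathway genes, 48 could be tested in ACI rats and 16 were higher and 3 lower in basal cells. In SD rats 42 could be tested and 19 were higher and 4 lower. The share of all genes that passed was 20.5% in ACI and 50.1% in SD rats. The largest were antagonists of the same family: SOSTDC1, a BMP and WNT antagonist, differed by 10.05 in ACI and 8.13 in SD rats, CHRDL1, a chordin-like BMP antagonist, by 4.57 and 6.31, and BMPER by 5.03 and 4.76. The lower genes in ACI rats were BMP3 (-2.83), BMPR1B (-4) and ID2 (-2.12), and in SD rats ACVR2B (-1.52), ID1 (-2.47), ID2 (-1.89) and SMAD7 (-1.09). ID2, a transcriptional target of BMP signaling, was thus lower in basal cells of both strains. ID4, of the same gene family, was higher there, with means of 10527 against 1234 in ACI and 1753 against 212 in SD rats. Among the transducers and targets, 3 were higher and 1 lower in basal cells of ACI rats. In SD rats 3 of them were higher and 3 lower.

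Single cells placed the members in cell classes. Levels are CPM, the UMIs of a gene scaled to a common total in each rat and class, classes were named from marker genes, and these levels are described without a test. In sorted ACI cells of vehicle rats, FST had a median of 180 (163 to 220) in basal-like cells against 6.48 in luminal progenitor-like and 0.117 in mature luminal-like cells. BMP7 was highest in basal-like cells at 40.4 (33.9 to 45.6), then mature luminal-like at 10.5 and luminal progenitor-like cells at 2.59, with no overlap between neighbours. INHBB was highest in luminal progenitor-like cells at 157 (123 to 182), which overlapped mature luminal-like cells at 126 (99.9 to 143), and was 2.36 in basal-like cells. The SD cells had the same order for these 3 genes, with FST at 177 (149 to 277) in basal-like cells, BMP7 at 51.6 there, and INHBB at 60.6 in luminal progenitor-like and 48.7 in mature luminal-like cells.

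Both receptors were found in every epithelial class. BMPR1A had medians of 74.6 in basal-like, 56.2 in mature luminal-like and 51.1 in luminal progenitor-like ACI cells, the last 2 overlapping, and 56.7, 42.5 and 36.5 in SD cells. The ACI basal-like values (70.4 to 81.2) lay above both luminal classes (up to 60.02 and 54.6). This order is opposite to that of the bulk ACI sorts, and the 2 were not tested against each other. BMPR2 had 127, 135 and 98.5 in ACI and 106.8, 87.4 and 75.2 in SD cells, in the order basal-like, mature luminal-like and luminal progenitor-like; neighbours overlapped except basal-like and luminal progenitor-like ACI cells. BMP2 was low, with its highest median in mature luminal-like cells at 2.97 in ACI and 7.39 in SD rats. The BMP4 medians were at or under 0.221 in the 3 epithelial ACI classes and at or under 0.568 in those of SD rats. A small ACI class of 47 fibroblast-like cells held more, with 26 BMP4 UMIs in the 11 cells of vehicle rats (148.4 and 42.9 CPM in the 2 rats that had such cells) and 22 in the 36 cells of TGFBRi rats (152.6, 4.45 and 0 CPM). This class is named from its markers only. By the study's methods, sorted cells with few keratin reads or with any PTPRC read had been removed. The study called a small group of ACI cells secretory basal cells and held them to be epithelial. That group was nearly equal to this class in size and in its split between vehicle and TGFBRi rats. The cells were not matched singly, so whether these are the same cells was not tested. GREM1 had a median of 1.71 in ACI basal-like cells and 0 in both luminal classes.

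The whole SD gland added the stroma and leukocytes. BMP4 was highest in endothelium-like cells at 91.8 (88.9 to 94.3), followed by lymphatic endothelium-like cells at 35.9 (17.6 to 85.6) and fibroblast-like cells at 22.4. BMP2 and INHBA were highest in mural-like cells, at 47.9 (43.6 to 68.9) and 126 (86.1 to 204), and INHBA was next in fibroblast-like cells at 52.7. FST was highest in basal-like cells at 1068.5 (754.3 to 1100.2), with fibroblast-like cells at 148 and mural-like cells at 76.9. The basal-like level of FST there was far above its 177 in the sorted SD cells. The 2 experiments differ in preparation and depth. By the study's methods their library kits also differ, reading opposite ends of the transcripts. The difference was not tested.

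INHBB was highest in endothelium-like cells of the whole gland at 16.4 (12.2 to 19.6), overlapping mature luminal-like cells at 11.8, whereas in the sorted cells its luminal level was several times that. NOG was highest in mature luminal-like cells at 14.3 (11 to 28.2), with basal-like cells at 5.01. GREM1 was highest among the named classes in mural-like cells at 16.8 (1.91 to 27.7). A cluster of 404 cells that got no name (cluster 27, led by CCL19, CXCL13 and GREM1 itself) held 723.0, 825.6 and 249.5 CPM of GREM1 in the vehicle rats. BMPR2 was highest in endothelium-like cells at 80.7, and BMPR1A in mature luminal-like cells at 15.2 (13.6 to 19).

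**Figure D2:**
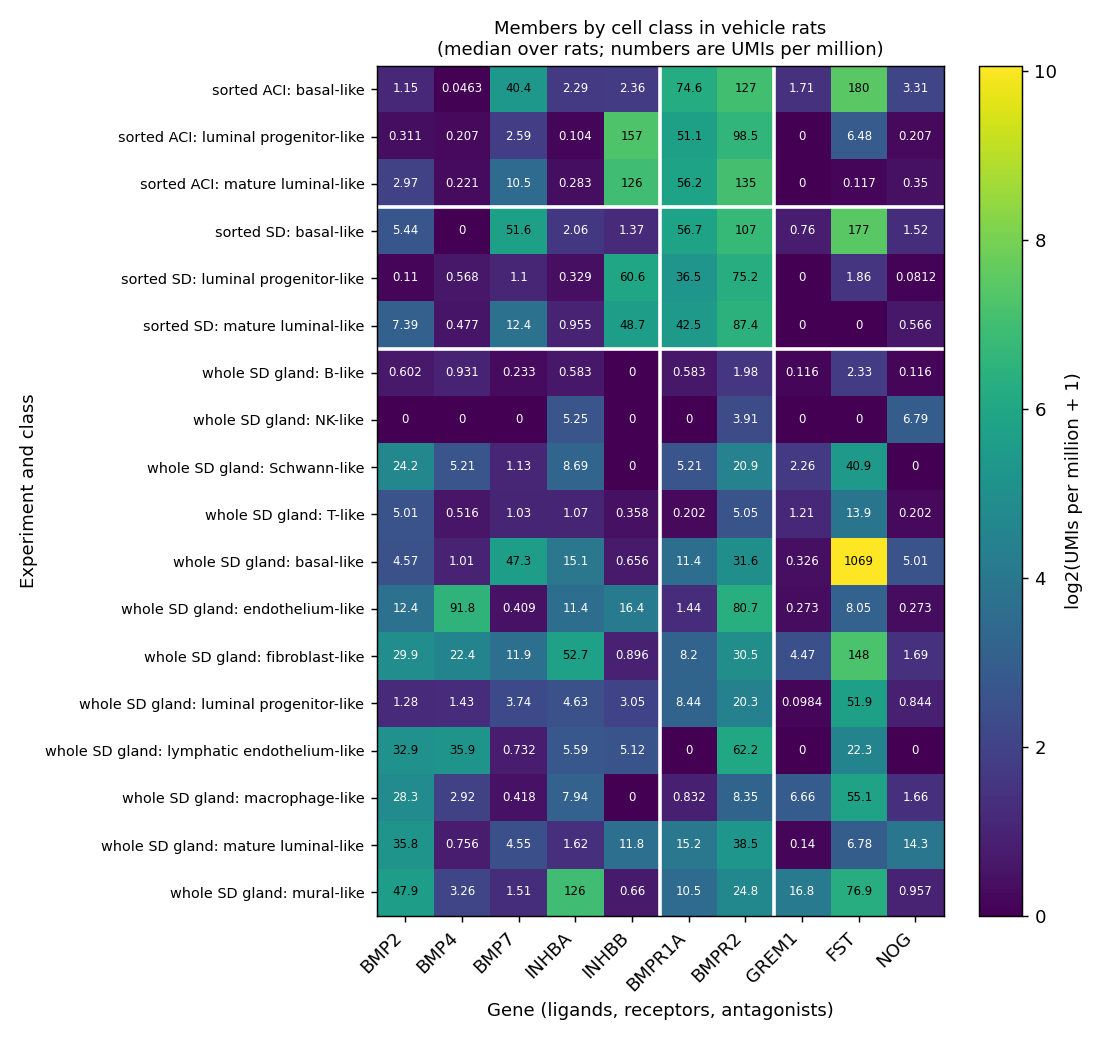
Heat map of the 10 genes (columns, as ligands, receptors and antagonists) by experiment and cell class (rows) in vehicle rats (3 in each experiment), where color is log2(CPM + 1) of the UMIs and the number in each cell is the median CPM over rats. FST and BMP7 are highest in basal-like cells in all 3 experiments, and BMP4 is highest in endothelium-like cells of the whole gland.

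Across sorts in bulk, given as CPM of the recovered reads, the CD45+ fraction was low for the receptors. In young ACI vehicle rats at D0, BMPR1A had a median of 3.44 in CD45+ cells against 41.9 in basal and 61.1 in luminal cells, and FST had 13.6 against 305 and 5.28. BMP4 overlapped between CD45+ cells (12.5, range 7.22 to 19.5) and basal cells (8.68, range 7.69 to 16.1). In EPCAM+ cells of vehicle tumors BMP7 had a median of 154 (106.6 to 160.9) and INHBA 12.7 (9.6 to 25.1), the latter above the 0.608 of basal and the 0.575 of luminal cells of TB vehicle glands, with no overlap. Different sets were normalized and prepared separately, so these levels are set side by side without a test.

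TGFBRi changed few members in bulk. Over 32 comparisons of TGFBRi with vehicle (316 member tests), limma called 4 member tests, edgeR 3 and DESeq2 5 on the recovered reads. In 28 comparisons limma called no member, and 28 of the 316 tests (8.86%) had an unadjusted p under 0.05, near the 8.61% of all gene tests in these comparisons. The 4 calls were BMP7 in young ACI basal cells, GREM1 in young ACI luminal cells, BMP4 in young ACI CD45+ cells, all at D0, and GREM1 in basal cells of adult virgin ACI rats.

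BMP7 in young ACI basal cells at D0 was 1508.6, 2254.5 and 1325.0 in vehicle and 733.0, 581.1 and 457.3 in TGFBRi rats. It fell by 1.51 (SE 0.33, adjusted p = 0.026), with no overlap, in a comparison that called 3.34% of 15643 genes and 1 of 10 members. It was lost without any of 3 rats (LD3L, LD3R and LD7R; adjusted p up to 0.116). In basal-like single cells of sorted ACI rats at D0, BMP7 was 33.9 to 45.6 CPM in vehicle and 30.6 to 38.1 in TGFBRi rats. Those groups overlapped, and BMP7 was not called in any ACI class. The bulk and single-cell results were not tested against each other. At D7 BMP7 was 4100, 2768 and 4087 against 2251, 2111 and 2228 (-0.71, adjusted p = 0.874), and at D14 1932, 4314 and 2466 against 3029, 3198 and 2889 (0.15). In luminal cells of young SD rats it was 535.4, 459.6, 428.7 and 392.0 against 355.8, 179.0, 176.2 and 178.5, which did not overlap and did not pass (-1.09, adjusted p = 1.0).

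Markers of several cell types moved with the fall of BMP7. In the same libraries the basal markers summed to 146816 to 219766 in vehicle and 50629 to 101058 in TGFBRi rats, the Schwann markers to 5645 to 10997 and 21638 to 34352, the macrophage markers to 187 to 310 and 1485 to 1683, and the cycling markers to 1424 to 1533 and 460 to 990. Their part in the result was not tested. The TGFBRi libraries were also the shallower ones, and the median difference of all genes was 0.30.

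BMP4 in CD45+ cells of young ACI rats at D0 was 286.2, 210.3 and 454.2 in vehicle and 39.2, 22.4 and 18.8 in TGFBRi rats. It fell by 3.51 (SE 0.56, adjusted p = 0.0039), where 2.85% of 14761 genes and 1 of 10 members were called, and the call was lost with only the groups compared in the fit (adjusted p = 0.065). At D7 it was 169.5, 146.1 and 289.8 against 191.6, 309.3 and 115.7 (-0.02), and at D14 233.5, 401.9 and 330.5 against 291.9, 61.3 and 219.8 (-0.99), so the groups overlapped at both later times. The difference between D0 and the later effects was -3.49 against D7 and -2.53 against D14 and passed in neither (adjusted p = 0.187 and 0.141).

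The CD45+ sort held other cells at D0 in vehicle rats. Fibroblast markers summed to 369088 to 741401 in vehicle and 23913 to 150470 in TGFBRi rats, basal markers to 3492 to 12765 and 113 to 204, mural markers to 2627 to 4614 and 395 to 857, and endothelium markers to 4069 to 9674 and 2903 to 4069. Neutrophil markers went the other way, from 378 to 1402 up to 9123 to 44494, and the common leukocyte markers overlapped, at 91361 to 158103 and 91817 to 114485. In the whole SD gland BMP4 has its highest levels in endothelium-like, then lymphatic endothelium-like and then fibroblast-like cells; the part of such cells in the fall of BMP4 was not tested.

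GREM1 was called in opposite directions in different settings, from few reads. In basal cells of adult virgin ACI rats it was 28.2, 46.7, 4.24 and 88.2 in vehicle and 0, 1.15, 1.44 and 0 in TGFBRi rats (-4.23, SE 0.92, adjusted p = 0.011), where 8.73% of 13442 genes and 1 of 10 members were called. The reads were 187 against 2, a ratio of 82.99 (95% counting interval 22.65 to 690.3), and the call was lost on the CPM scale (adjusted p = 0.156) and with only the groups compared in the fit (0.09). In parous rats it was 81.4, 52.5, 59.1 and 102.5 against 168.0, 64.7, 283.7 and 25.3 (0.40), and the difference of the effects, -4.63, did not pass with limma (adjusted p = 0.091). Many marker lists were lower in these TGFBRi libraries. Schwann markers summed to 2242 to 4732 in vehicle and 777 to 1232 in TGFBRi rats without overlap, and endothelium markers to 738 to 11187 and 365 to 875, with 7 of 7 lower and 2 called (median -2.28). Of the fibroblast markers 7 of 8 were lower and 2 called (median -1.26), although their sums overlapped widely (27200 to 80348 in vehicle, 10260 to 117914 in TGFBRi rats). The macrophage markers were lower in 8 of 8 (none called), the leukocyte markers in 4 of 4 (1 called) and the mature luminal markers in 6 of 6 (1 called), with overlapping sums, and the part of these cells was not tested.

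In luminal cells of young ACI rats at D0, GREM1 was 1.57, 0 and 0 in vehicle and 9.95, 8.36 and 33.1 in TGFBRi rats (3.47, SE 0.74, adjusted p = 0.040), where 1.01% of 15181 genes and 1 of 10 members were called. The reads were 2 against 51, a ratio of 40.7 (interval 10.7 to 345.1). The call was lost with edgeR, with DESeq2, with a pseudocount of 0.1 and without 5 of the 6 rats. At D7 GREM1 was 4.54, 0.824 and 0 against 0 in every TGFBRi rat. At D0 the leukocyte markers summed to 129.7 to 265.6 in vehicle and 314.2 to 588.2 in TGFBRi rats, the mast cell markers to 0 to 5.48 and 15.3 to 60.2, the T cell markers to 4.14 to 40.7 and 41.6 to 83.6, the cycling markers to 467.7 to 665.5 and 95.1 to 302.5, and the mature luminal markers to 11268 to 13997 and 6608 to 8767. The fibroblast markers overlapped, at 10953 to 22586 and 6460 to 51583, and the part of these cells in the result was not tested.

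Other members in the adult virgin basal cells moved without passing. BMP4 was 1254, 71.7, 295.1 and 104.9 against 148.1, 146.2, 0 and 0 (-4.25, adjusted p = 0.080), and BMP7 was 4915, 9403, 12415 and 11586 against 3734, 4849, 4895 and 6732 (-0.87, adjusted p = 0.069). FST did not overlap, at 3186, 3557, 2607 and 3262 against 4244, 4237, 10482 and 3806 (0.72, adjusted p = 0.165). The highest FST value is 1 rat, D_N2N.

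At D7 in young ACI basal cells, 5 of 10 members had an unadjusted p under 0.05 without passing. Of these, 4 were higher in TGFBRi than in vehicle rats: FST (6476 to 7710 against 1563 to 5601, difference 1.19, adjusted p = 0.827), GREM1 (27.7 to 101.7 against 0 to 14.9, difference 3.96, adjusted p = 0.677), BMP4 (63.9 to 127.9 against 14.0 to 51.7, difference 1.51, adjusted p = 0.814) and NOG (26.5 to 86.6 against 5.14 to 46.5, difference 1.87, adjusted p = 0.814). NOG overlapped and the other 3 did not. BMP2 (1.16), INHBB (1.22) and BMPR2 (0.78) were also higher by their means, with overlap and unadjusted p of 0.09, 0.14 and 0.40. In that comparison 871 of 15643 genes had an unadjusted p under 0.05, and 0.00639% of genes were called. Among its 3 vehicle rats was LD2LR, which some descriptions call treated. Leaving out any 1 rat gave 0 member calls, and counting LD2LR as treated was not tested. The 9 tests of a difference between effects, over time and over parity, gave no member with limma (13 of 90 tests, 14.4%, at an unadjusted p under 0.05, beside 9.31% of all gene tests), 1 with edgeR and 4 with DESeq2.

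After NMU, no member was called in glands or in tumors. FST in luminal cells of TB rats was 300.2, 843.6 and 274.8 in vehicle and 232.6, 41.8 and 251.8 in TGFBRi rats (-1.60, adjusted p = 0.212), and INHBA there was 4.31 to 19.9 against 0 to 1.34 (-2.85, adjusted p = 0.237), both without overlap. BMP7 in basal cells was 3268, 5518 and 5522 in TB vehicle rats, 3306, 4807 and 3626 in TB TGFBRi rats and 6086, 2617 and 4895 in TF TGFBRi rats, which overlap. In EPCAM+ tumor cells INHBA was 476.7, 210.3 and 117.2 against 351.1, 215.9 and 141.4, and BMP7 2034, 2668 and 1877 against 3007, 1281 and 2714, and the groups overlap for both genes.

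The background in the comparisons with no member called was low. No gene at all (0.0%) was called in young SD basal, luminal or CD45+ cells, in either tumor fraction, in the TF comparisons of NMU basal and CD45+ cells, in E2 CD45+ cells without E2 or of TF rats, in adult virgin luminal and parous CD45+ cells, in young ACI basal cells at D14 or luminal and CD45+ cells at D7 and D14. The NMU sets called 1.31% (TB, basal), 0.948% (TF, luminal), 0.212% (TB, luminal) and 0.015% (TB, CD45+). The E2 sets called 0.0147% (luminal, both without E2 and in TF rats), 0.00736% (luminal, TB) and 0.0223% (CD45+, TB), and the adult sets 0.00744% (basal, parous), 0.0281% (luminal, parous) and 0.022% (CD45+, virgin). Of the differences between effects, adult basal virgin minus parous called 1.04%, CD45+ D0 minus D14 0.19%, CD45+ D0 minus D7 0.0135%, luminal D0 minus D14 0.00659%, and basal D0 minus D14 0.00639%, while the other 4 called 0.0%.

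**Figure D3:**
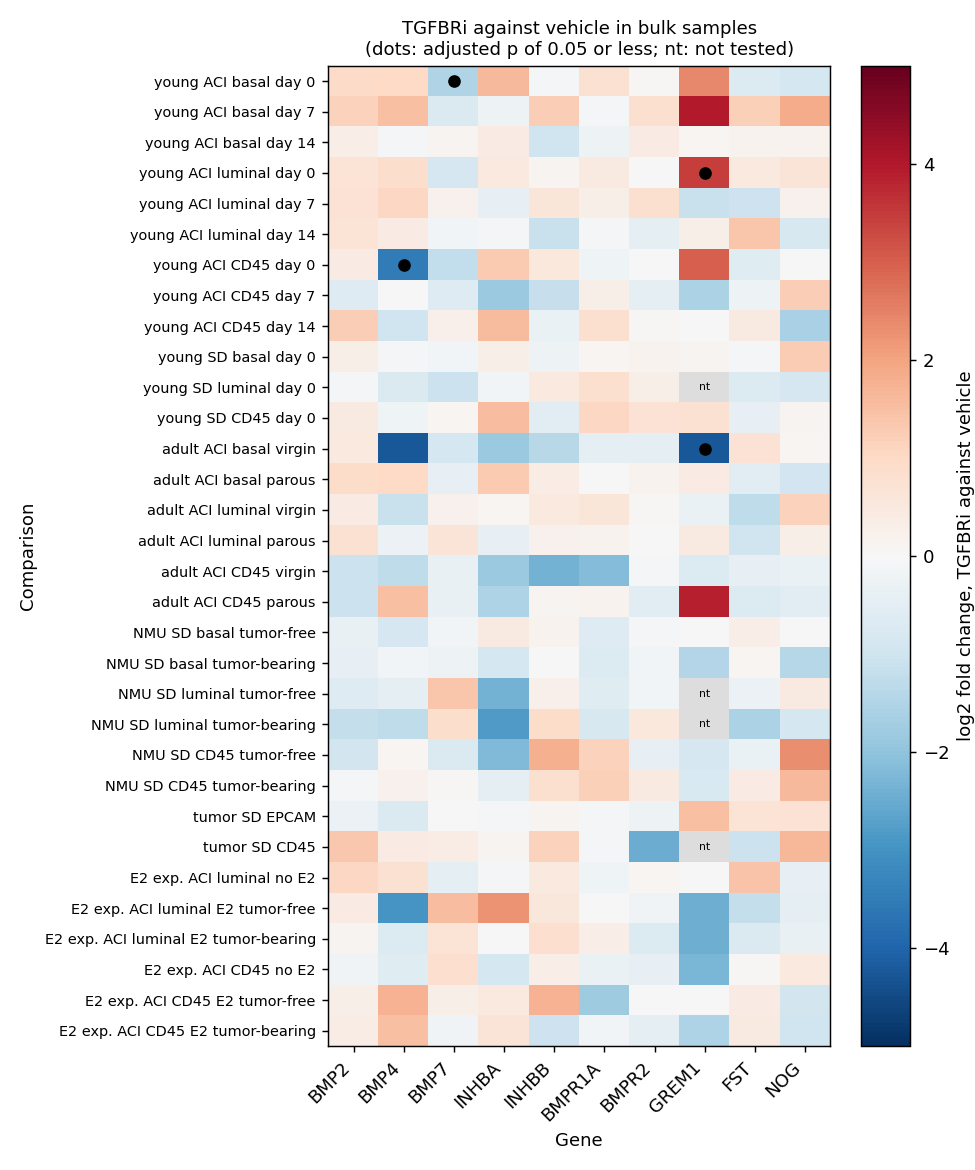
Heat map of the log2(value + 1) difference of TGFBRi minus vehicle (color, red higher and blue lower) for the 10 genes (columns) in the 32 bulk comparisons (rows), with a dot on each called gene and nt where a gene was not tested. The 4 dots are BMP7 (-1.51), GREM1 (3.47) and BMP4 (-3.51) in basal, luminal and CD45+ cells of young ACI rats at D0 and GREM1 (-4.23) in adult virgin basal cells.

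Estradiol gave 2 member calls, both among rats that had received TGFBRi. The E2 rats compared were TF after TGFBRi and TB after vehicle, so the 2 E2 effects also differ in tumor outcome. These effects were not tested against each other. BMP4 in luminal cells was 54.4, 94.9, 102.997 and 43.8 in TF rats with E2 and 339.0, 197.9 and 1164.8 in rats without E2. It fell by 2.60 (SE 0.66, adjusted p = 0.033), where 4.58% of 13590 genes and 1 of 10 members were called, and was lost without any of 5 rats (A4-4, A4-10, A4-15, A4-16 and A4-40; adjusted p up to 0.17). In vehicle rats it was 457.6, 761.3, 293.0 and 857.6 with E2 against 202.5, 409.8, 455.8 and 106.2 (1.11, adjusted p = 0.43), where 1.48% of genes and none of the members were called (1 with DESeq2). At an unadjusted p under 0.05 there were 2 of 10 members beside 1972 of 13590 genes. With E2 in both groups, BMP4 in TF TGFBRi rats lay below TB vehicle rats without overlap (-2.95, adjusted p = 0.129). The cells of the sort differed between the groups with and without E2 after TGFBRi: luminal progenitor markers summed to 506099 to 799320 against 189661 to 235724, mature luminal markers to 3615 to 5375 against 16191 to 27722, and basal markers to 5530 to 24540 against 2716 to 4183. The endothelium markers, 7 of 7 of them lower and none called, had a median difference of -2.78 and summed to 237 to 3870 against 1562 to 5612. Of the fibroblast markers 7 of 8 were lower and none called (median -1.73, 1008 to 11518 against 7569 to 30204), and the leukocyte markers summed to 198 to 302 against 366 to 1833. The part of these cells in the result was not tested.

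BMPR1A in CD45+ cells was 16.1, 6.34, 2.99 and 0 in TF rats with E2 and 38.2, 24.8 and 20.8 without E2 after TGFBRi (-2.57, SE 0.73, adjusted p = 0.049), where 5.58% of 13483 genes and 1 of 10 members were called. The call was lost with edgeR, with DESeq2, with a pseudocount of 0.1 and without 5 of the rats. In vehicle rats the values were 24.6, 13.5, 8.05 and 20.1 against 40.7, 36.7, 32.1 and 30.2 (-1.13, adjusted p = 0.54), which also did not overlap, and 0.282% of genes and none of the members were called. At an unadjusted p under 0.05 there were 2 of 10 members beside 1626 of 13483 genes. Leukocyte types shifted in these libraries: neutrophil markers summed to 1959 to 4980 against 350 to 637, macrophage markers to 20024 to 63834 against 11425 to 14838, T cell markers to 31710 to 50580 against 16109 to 27926, NK cell markers to 6076 to 14019 against 2415 to 3183 (5 of 5 higher, 3 called), and B cell markers to 350 to 18755 against 20782 to 24085. Dendritic markers were called higher in 2 of 6, with overlapping sums. Luminal markers were lower in 5 of 5 (median -1.25, 1839 to 7015 against 3189 to 14565) and mature luminal markers in 6 of 6 (median -1.17), none called and both overlapping, while luminal progenitor markers summed to 6607 to 14243 against 2343 to 3902. The part of these cells was not tested. Parity changed no member (0.0% of genes in basal and in luminal cells, 0 members by limma, edgeR and DESeq2). At an unadjusted p under 0.05 there was 1 member test (5%), beside 6.39% of all gene tests.

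The other pathway genes gave few bulk calls. In young ACI CD45+ cells at D0, 5 of 45 were lower (CHRD -5.51, RGMA -2.96, FSTL1 -2.47, ENG -1.72, ID4 -1.69), where 2.85% of all genes were called. CHRD is the BMP antagonist chordin and ENG the co-receptor endoglin. In these libraries 6 of 8 basal, 4 of 8 fibroblast and 4 of 9 mural markers were also called lower. So was 1 marker each of luminal progenitors, endothelium and Schwann cells, while 4 of 6 neutrophil markers were called higher. The part of these cells was not tested. Adult virgin basal cells had ID4 higher (1.09) and BMPER (-4.77), BMP3 (-4.09) and BMP15 (-3.27) lower among 41 tested, where 8.73% of all genes were called. The ENG effect in CD45+ cells at D0 also lay below that at D14 (-2.35, adjusted p = 0.047 by limma), where 0.19% of all genes were called. After E2 in vehicle rats, luminal cells had CHRDL2 higher (3.19) and INHA, the inhibin α subunit, lower (-5.92) among 42 tested. There 1.48% of all genes were called. After E2 in TGFBRi rats, luminal cells had 2 of 42 higher (SOSTDC1 5.95, CHRDL2 2.99) and 5 lower (BMPR1B -6.77, SMAD6 -6.04, CHRDL1 -5.76, ID1 -3.12, ID3 -2.56), and CD45+ cells had ID2 higher (1.67) and ID3 lower (-1.07) among 37. The shares of all genes called there were 4.58% in luminal and 5.58% in CD45+ cells.

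Single cells of the sorted epithelium gave more calls, on UMIs summed per rat and class. Here a gene was called at an adjusted p of 0.1 or less by edgeR. In ACI rats, 4 of 9 tested members were called in basal-like cells (34.2% of 13910 genes called), 2 of 8 in luminal progenitor-like cells (30.4% of 12793) and 3 of 7 in mature luminal-like cells (21.0% of 12738). In SD rats the counts were 5 of 10 (29.6% of 14079), 3 of 9 (29.1% of 13544) and 3 of 9 (30.9% of 13578). The share of members called was above the share of all genes in basal-like cells of both strains and in ACI mature luminal-like cells, below it in ACI luminal progenitor-like cells, and near it in both SD luminal classes. Summed over whole sorts, 5 of 10 (32.9%) and 2 of 9 (25.3%) were called in ACI basal and luminal cells, and 3 of 10 (24.7%) and 3 of 9 (31.9%) in SD basal and luminal cells.

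BMPR1A, a BMP type I receptor, was lower after TGFBRi in sorted cells of both strains, though not in the whole SD gland described further on. In ACI basal-like cells it was 81.2, 74.6 and 70.4 CPM in vehicle and 39.5, 40.3 and 37.8 in TGFBRi rats (-0.72, SE 0.10, adjusted p = 0.0006). In ACI mature luminal-like cells it was 60.02, 45.4 and 56.2 against 41.1, 35.1 and 34.5 (-0.34, SE 0.12, adjusted p = 0.081), a call that held in 6 of 12 alternatives. In SD basal-like cells it was 56.7, 59.5 and 54.3 against a lowest, median and highest of 14.1, 22.9 and 32.6 (-0.88, SE 0.22, adjusted p = 0.023), and it was also called in SD luminal progenitor-like (-0.85, adjusted p = 0.040) and mature luminal-like cells (-0.55, adjusted p = 0.074). BMPR1A groups did not overlap in any of these 5 classes. These CPM are on plain totals, on which differences of the sorted classes lay lower than in the test. In ACI luminal progenitor-like cells the groups did not overlap either (40.7 to 54.6 against 30.1 to 39.1). The tested difference there was -0.19 and did not pass.

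BMPR2, the type II receptor, was called lower in all 3 SD classes tested. It was 106.8, 87.2 and 120.3 against a lowest, median and highest of 36.04, 52.9 and 67.3 in basal-like cells (-0.61, SE 0.23, adjusted p = 0.073), and 88.9, 87.4 and 79.7 against 36.1, 47.9 and 58.2 in mature luminal-like cells (-0.51, SE 0.16, adjusted p = 0.043). The luminal progenitor-like difference was -0.72 (SE 0.25, adjusted p = 0.071). In ACI classes BMPR2 differed by -0.17 to 0.07 and was not called.

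INHBB fell in the luminal cells of ACI rats. It was 157, 123 and 182 against 77.2, 72.3 and 52.5 in luminal progenitor-like cells (-0.88, SE 0.14, adjusted p = 0.0021) and 126, 99.9 and 143 against 71.7, 70.4 and 39.9 in mature luminal-like cells (-0.81, SE 0.18, adjusted p = 0.020), without overlap and in every alternative tried. In SD rats it was called in mature luminal-like cells (-0.79, SE 0.30, adjusted p = 0.083), which overlapped, and in basal-like cells from few UMIs (-1.74, SE 0.53, adjusted p = 0.039).

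Of the 3 ACI classes tested, BMP2 was called higher in all and INHBA in basal-like cells only. BMP2 was 4.66, 2.97 and 1.10 against 5.43, 10.9 and 11.1 in mature luminal-like cells (1.75, SE 0.41, adjusted p = 0.023), 0.11, 1.3 and 0.311 against 3.09, 2.06 and 2.27 in luminal progenitor-like cells (2.83, SE 0.58, adjusted p = 0.0055), and 1.76, 1.15 and 0.571 against 2.36, 1.77 and 3.42 in basal-like cells (1.19, SE 0.39, adjusted p = 0.040). The luminal progenitor-like values rest on 9 against 48 UMIs, and the basal-like call was lost without 1 rat (ACI16). INHBA in ACI basal-like cells was 1.95, 2.29 and 3.89 against 5.40, 3.83 and 4.01 (1.03, SE 0.28, adjusted p = 0.018), which overlap, and was lost without ACI12. In the SD classes BMP2 differed by 0.71 to 0.86 and was not called.

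FST was called in ACI and BMP7 in SD basal-like cells, and the difference between the strains was not tested. FST rose in ACI rats from 180, 163 and 220 to 245, 221 and 240 (0.56, SE 0.12, adjusted p = 0.005), and in SD rats it was 177, 149 and 277 against a lowest, median and highest of 58.4, 86.4 and 229 (-0.41, SE 0.39, adjusted p = 0.47). BMP7 in SD rats was 51.6, 65.6 and 32.4 against 51.8, 65.6 and 86.4 (0.88, SE 0.26, adjusted p = 0.038), which overlap, and in ACI rats its differences ran from -0.28 to 0.06. The SD luminal progenitor-like call for BMP7 (1.94, SE 0.78, adjusted p = 0.098) also overlapped. GREM1 was called in SD basal-like cells from 10 against 10 UMIs (-1.85, SE 0.69, adjusted p = 0.073). BMP4 was called only in the ACI basal sort. The call held in 6 of 10 alternatives and was lost with DESeq2 and without ACI12, ACI15 or ACI16. It rests on 29 against 2 UMIs (ratio 12.6, interval 3.18 to 108.8), and the groups overlapped. Basal-like cells held 3 of these UMIs in vehicle and 1 in TGFBRi rats, so most lay outside that class, and 26 of the 29 were in 1 vehicle rat, ACI7, which had 25 in its 9 fibroblast-like cells. In the ACI luminal sort BMP4 had 9 UMIs in vehicle and 28 in TGFBRi rats (2.03, adjusted p = 0.15), 22 of them in ACI12. In the SD sorts INHBA was called higher in basal (1.70, SE 0.66, adjusted p = 0.096) and NOG higher in luminal cells (1.55, SE 0.63, adjusted p = 0.095, 12 UMIs in vehicle rats). Both overlapped and held in 7 and 6 of 14 alternatives, and their direction is opposite to that of the same genes in the whole SD gland. Neither gene was called in any of the 3 SD classes tested. The SD sorts also held 370 mural-like cells (34 in vehicle, 336 in TGFBRi rats) and 536 unnamed cells (35 and 501). These cells were not tested as classes, and their part in the calls of the sorts was not tested.

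The scaling moved these values, since the effective library sizes (TMM) and the plain totals differ. Against plain totals the differences of the sorted classes lay lower by 0.20 to 0.41, and the share of called genes that were higher went from 47.8 to 18.6% in ACI basal-like cells, from 50.8 to 10.6% and 49.9 to 13.6% in the luminal progenitor-like and mature luminal-like cells, and in SD cells from 51.8 to 12.9%, 51.4 to 13.5% and 51.7 to 18.4%. No called member changed direction. With totals, FST in SD basal-like cells became a call (-0.85, adjusted p = 0.098), BMP7 there was lost (0.46, adjusted p = 0.20), and BMPR1A in ACI luminal progenitor-like cells became a call (-0.52, adjusted p = 0.013), as did BMPR2 there (-0.41, adjusted p = 0.0076). Every SD call was lost without at least 1 of the vehicle rats SD1, SD2 and SD3.

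The cells of a class came from different clusters by treatment. In ACI basal-like cells 42.1% and 35.1% of vehicle cells were in clusters 4 and 3, and 42.4% and 31.2% of TGFBRi cells in clusters 0 and 2. In SD basal-like cells 93.5% of vehicle cells were in cluster 3, and TGFBRi cells were in clusters 7, 2 and 1, cluster 7 being 98.5% 1 rat. SD luminal progenitor-like vehicle cells were 85.4% in cluster 11 and TGFBRi cells in clusters 10, 12, 15 and 17, and mature luminal-like vehicle cells were 75.8% in cluster 8 and TGFBRi cells 59.8% in cluster 9. Immediate-early genes, which cell handling can raise, moved with treatment: 21201 to 28959 CPM in vehicle against 12433 to 14564 in TGFBRi rats in ACI basal-like cells, 26669 to 33515 against 15941 to 20557 in ACI luminal progenitor-like cells, and 11370 to 12288 against 3284 to 8166 in SD basal-like cells. Their part in the results was not tested.

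**Figure D4:**
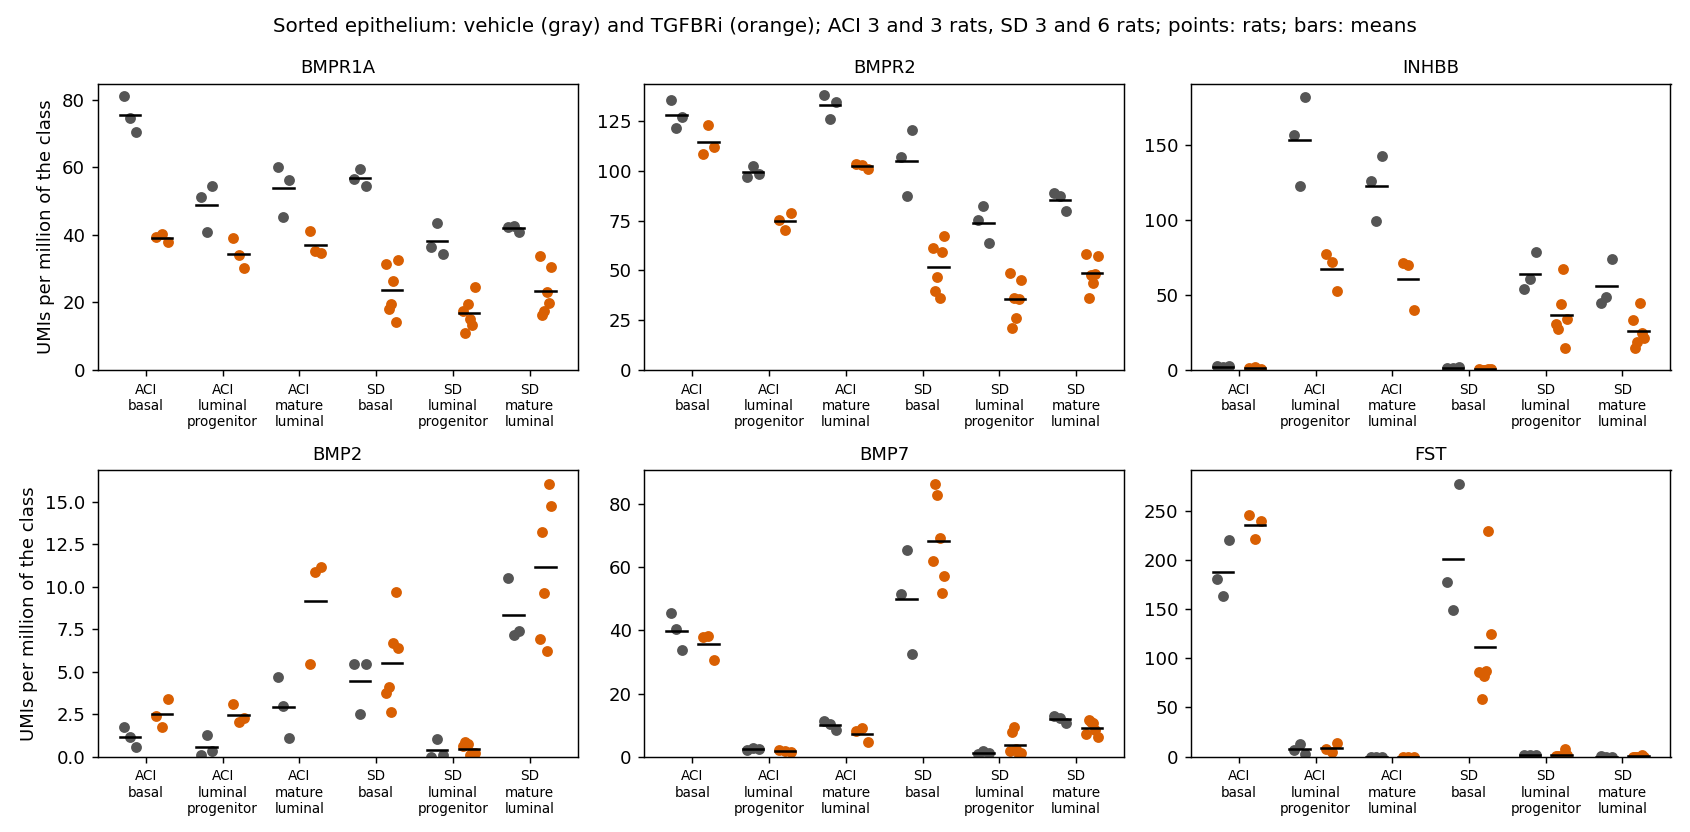
CPM of UMIs (y axis, linear from 0) of 6 of the genes by class in the sorted ACI and SD cells of vehicle (gray) and TGFBRi (orange) rats, with 1 point per rat and bars at the means. BMPR1A lies lower after TGFBRi in basal-like cells of both strains without overlap, and INHBB lies lower in both ACI luminal classes.

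Among the other pathway genes, ACI basal-like cells had 6 of 33 higher and 6 lower (SMAD9 1.97, ID3 1.55, BAMBI 0.60, CHRDL1 -5.33, ATOH8 -1.49, SMAD4 -0.73), luminal progenitor-like cells 2 of 27 higher and 6 lower, and mature luminal-like cells 0 of 25 higher and 4 lower. SD basal-like cells had 1 of 32 higher (ACVR1C 5.23) and 8 lower (RGMB -1.45, SMAD4 -1.35, ATOH8 -1.17, SMAD7 -1.08 among them), luminal progenitor-like cells none of 27 higher and 4 lower (BMPR1B -1.81, SMAD4 -1.50, SMAD7 -1.19, FSTL1 -1.18), and mature luminal-like cells 1 of 28 higher and 5 lower. SMAD4, the partner of all receptor-activated SMADs, was lower in all 3 tested classes of both strains, and CHRDL1 is a BMP antagonist. In the whole SD gland, described next, SMAD4 was not called in any class. The shares of all genes called in the sorted classes are those given above for the members.

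In the whole SD gland FST, INHBA and NOG were called lower in most of the classes tested. All classes come from the same rats and libraries, so calls of a gene in several classes are not independent. Free RNA, which can carry a gene's UMIs into other classes, was not removed. FST was called lower in 8 of the 12 classes tested, INHBA in 7 of 11, NOG in 5 of 8, BMP2 in 3 of 11 and GREM1 in 2 of 6, and none of these 5 was called higher in any class. INHBB was called higher in 1 and lower in 1 of 8 classes, BMP4 higher in 1 of 11, BMP7 higher in 2 of 9, and neither BMPR1A (10 classes) nor BMPR2 (12 classes) was called in any class. BMPR1A was higher in 9 of its 10 classes there (0.31 in basal-like, 0.29 in luminal progenitor-like and 0.21 in mature luminal-like cells), with the opposite sign to the sorted cells, and the difference between the experiments was not tested. Members called were 2 of 10 in basal-like (44.4% of genes), 4 of 9 in endothelium-like (34.7%), 4 of 10 in fibroblast-like (29.2%), 5 of 9 in luminal progenitor-like (28.8%), 5 of 10 in mature luminal-like (29.3%), 3 of 10 in mural-like (27.7%), 1 of 8 in B-like (17.1%), 1 of 6 in lymphatic endothelium-like (15.1%), 1 of 6 in Schwann-like (10.8%), 2 of 8 in T-like (8.7%), 2 of 9 in macrophage-like (3.45%) and 0 of 3 in NK-like cells (2.55%). The share of members was below the share of genes in basal-like, B-like and NK-like cells and above it in the other 9 classes, by little in mural-like and lymphatic endothelium-like cells. No member in NK-like cells had an unadjusted p under 0.05 with edgeR. The median difference of the tested members was -0.88 in mature luminal-like, -0.76 in luminal progenitor-like, -0.59 in endothelium-like, -0.33 in fibroblast-like and 0.06 in basal-like cells, beside medians of all genes of -0.03 to 0.05 over the 12 classes.

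FST fell from 754.3, 1100.2 and 1068.5 CPM to a lowest, median and highest of 108.1, 202.1 and 230.7 in basal-like cells (-2.40, SE 0.24, adjusted p = 7.2e-05). It fell from 51.9, 56.6 and 25.3 to 1.47, 3.62 and 7.09 in luminal progenitor-like cells (-3.70, SE 0.45, adjusted p = 0.0007) and from 8.05, 6.78 and 5.48 to 0, 0.819 and 3.54 in mature luminal-like cells (-2.60, SE 0.65, adjusted p = 0.017). The fibroblast-like groups, at 134, 148 and 227 against 83.97, 108.3 and 147.5, overlapped (-0.87, SE 0.24, adjusted p = 0.021). It was also called lower in Schwann-like (-1.72, adjusted p = 0.0053), B-like (-3.02, adjusted p = 0.0092), lymphatic endothelium-like (-1.71, adjusted p = 0.031) and macrophage-like cells (-3.38, adjusted p = 0.042); the B-like call was lost without the vehicle rat veh2, the lymphatic endothelium-like one without veh1 (adjusted p up to 0.16) or without the cells of the highest Scrublet scores, and the macrophage-like one without the TGFBRi rat ly4. The leading clusters of basal-like cells differed by treatment, cluster 6 (82.3% of vehicle cells), whose leading gene is FST, and cluster 7 (82.6% of TGFBRi cells).

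INHBA, the activin A subunit, fell in stroma and epithelium. It was 126, 204 and 86.1 against 28.2, 43.9 and 70.2 in mural-like cells (-1.71, SE 0.27, adjusted p = 0.00097), and 52.7, 76.8 and 19.2 against 7.01, 8.70 and 13.9 in fibroblast-like cells (-2.57, SE 0.31, adjusted p = 0.00024). In basal-like cells it was 10.7, 28.4 and 15.1 against 1.17, 3.67 and 5.86 (-2.38, SE 0.41, adjusted p = 0.0011) and in luminal progenitor-like cells 4.63, 6.01 and 1.27 against 0.239, 0.486 and 1.26 (-2.95, SE 0.50, adjusted p = 0.0033). None of these 4 pairs of groups overlapped. The macrophage-like call rests on 59 against 3 UMIs (ratio 20.8, interval 6.78 to 103.7) and was lost with DESeq2, the mature luminal-like call (-2.46, adjusted p = 0.047) was lost without the vehicle rat veh4, and the endothelium-like call (-1.32, adjusted p = 0.075) was lost in 7 of 15 alternatives.

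NOG and GREM1 were lower too. NOG in mature luminal-like cells was 11, 28.2 and 14.3 against a lowest, median and highest of 1.27, 2.10 and 3.50 (-3.11, SE 0.33, adjusted p = 0.00024), and in fibroblast-like cells 1.69, 1.77 and 1.18 against 0.158, 0.329 and 0.569 (-2.47, SE 0.40, adjusted p = 0.0015). Its calls in luminal progenitor-like (-2.65, adjusted p = 0.011), mural-like (14 against 2 UMIs, ratio 6.08, interval 1.4 to 55.1) and endothelium-like cells (12 against 3 UMIs, ratio 4.56, interval 1.23 to 25.2) rest on few UMIs. The luminal progenitor-like call was lost with DESeq2, with a Leiden resolution of 1.2 and without the cells of the highest Scrublet scores, the mural-like call with DESeq2, without those cells and without veh2, and the endothelium-like call held in 5 of 14 alternatives. GREM1 in mural-like cells was 27.7, 16.8 and 1.91 against 0, 1.04 and 3.24 (-4.08, SE 0.77, adjusted p = 0.0028), with 1 vehicle rat inside the TGFBRi range. In T-like cells GREM1 (-3.74, adjusted p = 0.055) rested on 24 against 7 UMIs and was lost without ly11, ly4 or veh4. In the unnamed cluster 27 it was 152.5 to 496.5 in TGFBRi rats, where 1 rat had 9 cells, a level that overlaps the vehicle values given earlier.

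BMP2 fell in mature luminal-like cells, from 35.8, 18.3 and 50.3 to a lowest, median and highest of 10.2, 14.3 and 17.3 (-1.38, SE 0.26, adjusted p = 0.0043), and in fibroblast-like cells, from 29.9, 29.8 and 43 to 15.3, 19.2 and 24.0 (-1.03, SE 0.20, adjusted p = 0.0044). The luminal progenitor-like call (-1.37, adjusted p = 0.045) was lost without veh1 (adjusted p up to 0.37). INHBB went in opposite directions by class, up in luminal progenitor-like cells from 1.89, 3.05 and 5.06 to 12.6, 14.6 and 18.5 (2.20, SE 0.29, adjusted p = 0.001) and down in endothelium-like cells from 16.4, 19.6 and 12.2 to 5.17, 7.82 and 11 (-1.22, SE 0.24, adjusted p = 0.0025). BMP4 in endothelium-like cells, its highest class, rose from 91.8, 88.9 and 94.3 to 117, 140 and 160 (0.38, SE 0.12, adjusted p = 0.035), and was lost without veh2 (adjusted p = 0.121). BMP7 was called higher in mature luminal-like (0.54, adjusted p = 0.088) and T-like cells (1.80, adjusted p = 0.061, 8 UMIs in vehicle rats). The first held in 6 of 15 alternatives, and in 2 of the 9 that left out a rat, and the second was lost without ly4, veh1 or veh2.

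Summed over all cells of a library, 6 of 10 members were lower, with 32% of 18178 genes called. FST was 167, 268 and 155 against a lowest, median and highest of 33.6, 39.5 and 51.7 (-2.41, SE 0.17, adjusted p = 0.00015), INHBA 14.1, 32.5 and 20.8 against 3.27, 4.34 and 7.18 (-2.42, SE 0.27, adjusted p = 0.00052), and NOG 3.75, 5.82 and 2.98 against 0.662, 1.26 and 1.36 (-2.02, SE 0.24, adjusted p = 0.00069). BMP2 (-1.32, adjusted p = 0.0096) and GREM1 (-1.78, adjusted p = 0.015, overlapping) followed, and BMPR2 (-0.28, adjusted p = 0.094) was lost in 7 of 14 alternatives. Such sums also change with the shares of the cell classes.

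Basal markers outside their own class, HMOX1 and immediate-early genes differed between the treatment groups. Basal markers summed to 752 to 1017 CPM in vehicle against 282 to 460 in TGFBRi rats in luminal progenitor-like cells, 201 to 674 against 34.5 to 108.3 in mature luminal-like cells, 41.9 to 116 against 23.2 to 47.1 in B-like cells and 12637 to 13838 against 15815 to 21994 in basal-like cells. Free RNA was not separated from the cells' own. Its part in the calls of FST outside basal-like cells, and in the calls of INHBA, NOG, GREM1 and the other members, was not tested. HMOX1, a stress gene, was 2368 to 8737 against 792 to 1157 in basal-like and 1236 to 8023 against 611 to 1095 in fibroblast-like cells, and immediate-early genes were 2829 to 3832 against 5050 to 9018 in fibroblast-like and 5141 to 5636 against 7775 to 10583 in mural-like cells; their part was not tested. Plain totals raised the share of higher calls from 47.6 to 72.5% in fibroblast-like, from 43.7 to 69.2% in endothelium-like, from 44 to 65.9% in mural-like and from 24.0 to 77.2% in macrophage-like cells, and from 46.8 to 60.4%, 45.3 to 57.9%, 37.3 to 51.9% and 40.8 to 57.2% in luminal progenitor-like, mature luminal-like, Schwann-like and lymphatic endothelium-like cells, but left basal-like cells at 49.2 and 49%. No called member changed direction with totals.

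**Figure D5:**
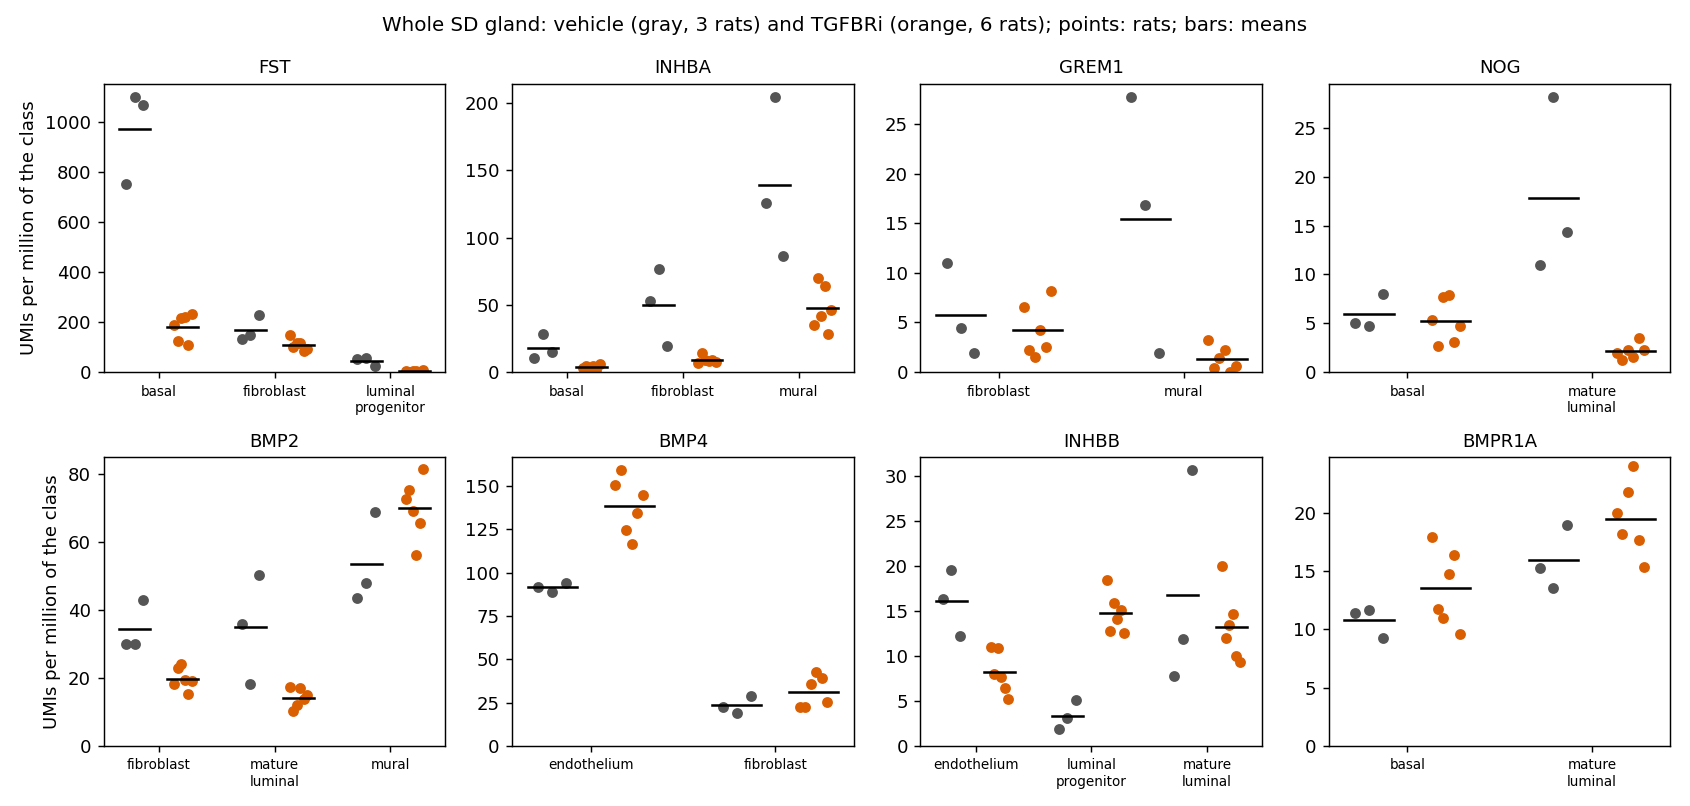
CPM of UMIs (y axis, linear from 0) of 8 of the genes in selected classes of the whole SD gland of vehicle (gray, 3) and TGFBRi (orange, 6) rats, with 1 point per rat and bars at the means. FST and INHBA lie lower after TGFBRi in basal-like cells and NOG in mature luminal-like cells, and INHBB is higher in luminal progenitor-like cells, all without overlap.

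The other pathway genes of the whole gland moved both ways. In basal-like cells 13 of 39 were higher (ATOH8 2.04, SMAD6 1.87, SMAD7 1.58, GDF11 1.17, SOSTDC1 1.10, CHRDL2 1.08 among them) and 2 lower (ID1 -1.08, RGMB -0.74), where 44.4% of all genes were called. ATOH8, SMAD6 and SMAD7 are targets of BMP or TGFβ signaling. In sorted SD basal-like cells ATOH8 (-1.17) and SMAD7 (-1.08) were called lower, the opposite direction. Fibroblast-like cells had 7 of 42 higher (SMAD9 2.19, ATOH8 1.72, ACVR1B 1.08) and 4 lower (BMP8A -2.38 and GDF6 -1.25 among them), and endothelium-like cells 3 of 34 higher (ATOH8 1.24, SMAD6 1.08, ACVRL1 0.80) and 4 lower (BMPER -1.92). Luminal progenitor-like cells had 3 of 33 higher (CHRDL2 2.67, RGMA 1.5) and 7 lower (ACVR1C -3.45, FSTL3 -1.96), mature luminal-like cells 3 of 32 higher (BMPR1B 1.12) and 9 lower (ACVR1C -2.13, BMP3 -2.05, ID1 -1.15, ID3 -1.14), and mural-like cells 5 of 36 higher and 2 lower. Over the whole gland 2 of 47 were higher and 9 lower. The shares of all genes called in these classes and over the whole gland are those given above for the members.

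Genes whose bulk pattern was most like a member were ranked by Pearson's r of log2(CPM + 1) over the 196 samples of 16 sets, which share sorts and rats, so these values carry no p. For BMP7 the nearest was KRT5 (0.918), a basal keratin, then AJUBA (0.896) and COL9A2 (0.894). FST was nearest to SNAI2 (0.872), BMPR1A to PTPRK (0.919), BMPR2 to HIPK3 (0.898) and INHBB to ATP2C2 (0.904). BMP2 (ADAMTS1, 0.711), BMP4 (TMEM252, 0.687) and INHBA (NKD2, 0.676) had looser neighbours. GREM1 (TENM3, 0.715, 190 samples) and NOG (NRG1, 0.740) averaged under the level of 1 CPM that the ranking asked for and were ranked as an exception made after their values were seen.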

How the data were processed

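Bulk RNA-seq was measured in 202 samples and single-cell RNA-seq in 39 libraries. The deposited bulk signal values were made by the authors from HTSeq counts divided by DESeq2 size factors, per the labels, and whole reads came back for 100% of 2526805 values (tolerance 0.001). The deposited single-cell values are UMI counts, made by the authors with Cell Ranger. By the study's methods and the submitters' processing notes, bulk reads were aligned to rn6 with STAR 2.5.1b and normalized with DESeq2 1.30.1, and Cell Ranger 4.0.0 was used for sorted cells and 7.0.0 for the whole gland; another statement of the study names other versions for some of these tools. In the adult and estradiol tables, 23.1 to 42.5% of reads fell on no gene and were left out.

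Bulk values were tested with limma 3.58.1 (trend, robust) on log2(value + 1), over genes whose values summed to 10 or more, with all groups of a data set and sort in 1 fit and Benjamini-Hochberg adjustment over all genes. A fold change on that scale understates the change of low genes. The 4 parts of rat A4-15 were averaged. Alternatives were edgeR 4.0.16 and DESeq2 1.42.0 on recovered reads, other pseudocounts, filters and scales, and leaving out each rat. Basal and luminal samples share the rat by label, and deviations of the pairs from their group means correlated at -0.022 to 0.742 in young ACI (18 pairs, median 0.424) and 0.0641 to 0.181 in young SD rats (8 pairs, median 0.105).

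Cells were clustered with scanpy 1.11.5 (2000 variable genes without the pathway's genes, 30 components, 20 neighbours, Leiden resolution 0.8) and named X-like from markers. The naming rule (at least 3 markers found in 10% of cells, a z of at least 0.5) was adjusted after the first names were seen, and names may differ from the study's. UMIs were summed per rat and class of at least 10 cells and tested with edgeR's quasi-likelihood test with TMM, at an adjusted p of 0.1. The SE of single-cell values was taken from the log2 fold change and its F statistic and is approximate. Scripts were tested on simulated data. Promoters come from RefSeq (GRCr8), which is not the build of the files.

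Members and lists were chosen with earlier results of these data known. Named are all 10 members, pathway genes past the test with the largest changes, and the genes most like each member. Some results of the pathway list are not reported here. The rat LD2LR, called treated in some descriptions and control in its titles, was taken as vehicle, and LD9R, with days that differ between labels, as D7. Immediate-early genes and HMOX1 were added after the data were seen. Counting intervals and depth cover counting error only.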

Additional observations from a re-analysis of the deposited data

Results flagged for a closer look

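In each group of 4 to 10 rats, the highest or lowest rat was compared with the others by Dixon's criterion. Of 252 groups tested (199 bulk, 53 single-cell), 26 were past it, 10.3%. The values are normalized counts in bulk and CPM of UMIs in single cells. The criterion's chance rate of about 1 in 20 holds for normally distributed values, and whether these values are so distributed was not tested. The 10.3% is therefore not shown to be more than chance gives.

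Several of the values past the criterion fall on the same rats. The luminal sample of 1 adult virgin vehicle rat, C_N1N, was highest in its group for BMP2 (430.3, next 70.4), BMP4 (923.1, next 198.0), NOG (20.4, next 0.880) and INHBA (51.1, next 2.64). In that sample basal markers summed to 45210 against 3130 to 5808 in the others, fibroblast markers to 44025 against 2488 to 8571, macrophage markers to 12440 against 228 to 372 and leukocyte markers to 2259 against 440 to 575; their part in these values was not tested. The luminal sample of the young SD vehicle rat C6N, which also had the highest basal marker sum, was highest for BMP4 (154.1) and FST (324.2). The basal sample of the adult virgin TGFBRi rat D_N2N was highest for FST (10482) and INHBA (343.8, next 48.3), and the young SD TGFBRi rat D8N for INHBA in basal cells (161.4) and BMP4 in luminal cells (104.9).

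Single values elsewhere were as follows. In adult parous TGFBRi CD45+ cells BMP2 was highest in D_P2R (953.8), INHBA in D_P1N (32.3) and INHBB in D_P2N (166.2). In adult parous vehicle rats BMP7 was highest in basal cells of C_P1N (11353) and GREM1 in luminal cells of C_P2R (37.9), and in adult virgin TGFBRi luminal cells GREM1 was highest in D_N1R (28.99). In young SD rats BMP4 was highest in CD45+ cells of C7N (1081.8), GREM1 in those of C6R (17.1) and BMP7 in TGFBRi luminal cells of D7N (355.8), and INHBB was lowest in TGFBRi basal cells of D7N (18.1). In E2 rats BMP4 was highest in TB vehicle CD45+ cells of A4-27 (40.5) and INHBA in TF TGFBRi luminal cells of A4-24 (90.01). In single cells of TGFBRi rats, FST was highest in macrophage-like cells of ly6 (13.9), INHBA in fibroblast-like cells of ly11 (13.9) and in the basal sort of SD13 (62.4), and NOG was lowest in the whole gland of ly11 (0.662).

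For 4 genes and classes, every TGFBRi rat moved one way in the sorted ACI cells and the other way in the whole SD gland, which differ in strain, age, preparation and library kit. The log2 differences were 0.56 and -2.40 for FST in basal-like cells, 2.83 and -1.37 for BMP2 in luminal progenitor-like cells, -0.88 and 2.20 for INHBB in luminal progenitor-like cells, and 1.75 and -1.38 for BMP2 in mature luminal-like cells. In sorted SD cells the same differences were -0.41 for FST, 0.86 and 0.72 for BMP2 and -0.52 for INHBB, none of them called and all overlapping, so BMP2 and INHBB had the sign of the ACI cells there and FST that of the whole gland. The difference between the experiments was not tested.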

How the results depend on the processing

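Over 72 counts of called members and 938 alternatives, 840 stayed within 1.5 times the main count and 98 moved, 34 of them other than by leaving out a rat. Of 88 member calls, 43 held in every alternative tried, and of 1197 alternatives 1015 kept the call, 182 lost it and 0 reversed its direction. With few members per comparison, a shift by 1 call counts as a move. DESeq2 in place of limma gave 1 member in place of 0 in E2 TF luminal cells, in E2 vehicle luminal cells, in adult basal virgin minus parous (also with edgeR), in young ACI basal D0 minus D14 and in CD45+ D0 minus D7 and D0 minus D14, 2 in place of 1 in E2 TGFBRi luminal and adult virgin basal cells, and 0 in place of 1 in E2 TGFBRi CD45+ cells and young ACI luminal cells at D0, where edgeR and a pseudocount of 0.1 also gave 0 and, in the latter, the stricter filter removed the gene. Fitting only the groups compared gave 1 in E2 TF luminal cells and 0 in E2 TGFBRi CD45+, adult virgin basal and young ACI CD45+ cells at D0. The separate parts of rat A4-15 gave 1 in E2 TF luminal and 0 in E2 TGFBRi CD45+ cells, and the CPM scale gave 0 in adult virgin basal cells. In single cells, plain totals gave 4 in place of 2 in ACI luminal progenitor-like cells and the ACI luminal sort and 2 in place of 4 in endothelium-like cells. Leiden resolution 1.2 gave 2 in place of 5 in SD basal-like cells and 4 in place of 1 in B-like cells. Leaving out the 6% of cells with the highest Scrublet scores gave 4 in place of 2 in basal-like, 1 in place of 2 in T-like, 0 in place of 1 in lymphatic endothelium-like and 3 in place of 5 in mature luminal-like cells, and DESeq2 gave 5 in place of 3 in the SD luminal sort and 1 in place of 2 in macrophage-like cells. The cause of these moves was not tested.

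Leaving out a rat gave 0 to 1 members in E2 TGFBRi CD45+, E2 TB CD45+, E2 TGFBRi luminal, E2 vehicle luminal, and young ACI basal and luminal cells at D0, 1 to 2 in adult virgin basal cells, and 4 to 5 in basal against luminal cells of ACI rats. In single cells it gave 3 to 4 in ACI basal-like cells and sort, 2 to 3 in the other ACI classes and sort, 0 to 6 in SD basal-like cells and sort, 0 to 3 in SD luminal progenitor-like, 0 to 4 in SD mature luminal-like cells and the luminal sort, 1 to 2 in B-like and Schwann-like, 0 to 3 in T-like, 2 to 4 in basal-like, 1 to 5 in endothelium-like, 4 to 6 in luminal progenitor-like, 0 to 2 in lymphatic endothelium-like, 1 to 4 in macrophage-like, 3 to 5 in mature luminal-like and 2 to 3 in mural-like cells, and 5 to 7 in the whole gland. The replicate block by rat raised the basal against luminal calls from 6 to 7 members in young ACI rats and left 7 in young SD rats, where genes went from 6710 to 6838.

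The number of all genes called moved more: over the alternatives it ran from 70 to 2749 (main 523) in young ACI basal cells at D0, 0 to 2358 (153) in luminal and 29 to 1043 (420) in CD45+ cells, 136 to 1712 (1173) in adult virgin basal cells, 246 to 1567 (623) in E2 TGFBRi luminal and 149 to 1508 (752) in CD45+ cells, 89 to 635 (201) and 0 to 247 (38) in E2 vehicle luminal and CD45+ cells, 2157 to 5714 (3241) in ACI basal against luminal cells, 275 to 4847 (4166), 2 to 4952 (3936) and 1298 to 5142 (4202) in SD basal-like, luminal progenitor-like and mature luminal-like cells, 1396 to 3281 (2679) in ACI mature luminal-like cells, and 2935 to 5515 (4446), 2217 to 4268 (4135), 2316 to 4655 (3678) and 165 to 1119 (412) in fibroblast-like, luminal progenitor-like, mural-like and macrophage-like cells of the whole gland. Several calls of GREM1 and NOG rest on few reads or UMIs, with wide counting intervals; detection against depth was not tested.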
